A study of Canis lupus familiaris with 18 samples.

Results

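Canine high grade oligodendrogliomas (HGO) with much PDGFRA RNA were compared with those with little. PDGFRA (ENSCAFG00000002057) encodes platelet-derived growth factor receptor alpha. The 16 tumors were ranked by their PDGFRA level, and the 5 highest (PDGFRA-high) were set against the 5 lowest (PDGFRA-low), with 6 middle tumors between them. The level was the log2 of CPM, the counts of a gene per 1000000 counts in the library, with a prior count of 2. TMM normalization had corrected these for differences in library composition. The series holds 18 RNASeq libraries of prosencephalic tumors in formalin-fixed, paraffin-embedded tissue, 11 labelled French bulldog, 4 boxer and 3 Boston terrier, and was collected to compare these breeds. French bulldogs 2 and 8 carry the same case number and were summed as 1 tumor, called French bulldog 2 here. French bulldog 6 was left out because its library stands apart from the others. The labels give no treatment or dose, and no normal brain was analysed here. Dogs keep their label numbers.

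PDGFRA is the receptor through which oligodendrocyte precursor cells receive the platelet-derived growth factors PDGF-A and PDGF-C. Its kinase signals through the RAS and MAP kinase cascade and through PI3K and AKT, and it keeps precursors dividing. Cells lose the receptor as they mature into myelinating oligodendrocytes. In glioma the gene can be amplified, mutated or strongly transcribed.

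The groups were chosen by the measured level of PDGFRA, so its values are a description and were not tested. In the PDGFRA-high tumors it stood at 5126 CPM in French bulldog 2, 1855 in French bulldog 5, 1750 in Boston terrier 7, 1716 in French bulldog 4 and 1619 in French bulldog 10. In the PDGFRA-low tumors it stood at 527 CPM in boxer 1, 384 in boxer 3, 283 in French bulldog 1, 210 in French bulldog 11 and 171 in French bulldog 9. French bulldog 2 was therefore far above the rest of its group, 2.76 times the next tumor and 29.9 times the lowest. Its separate libraries gave 5115 and 5297 CPM before TMM. The means were 2413 ± 1519 CPM (SD, n = 5) and 315 ± 144 CPM (SD, n = 5), a difference of 2.89 in mean log2 CPM.

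The upper border of the ranking fell inside a near tie and the lower one inside a wider gap. French bulldog 10 was just inside the PDGFRA-high group at 10.66 log2 CPM, and Boston terrier 2 was just outside it at 10.65. Boxer 1 was just inside the PDGFRA-low group at 9.04 log2 CPM, and boxer 4 was just outside at 9.56. The Boston terriers held ranks 3, 6 and 7, and the boxers ranks 10 to 13. French bulldog 6 had 406 PDGFRA counts, or 45.3 CPM, less than any ranked tumor.

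**Figure D1:**
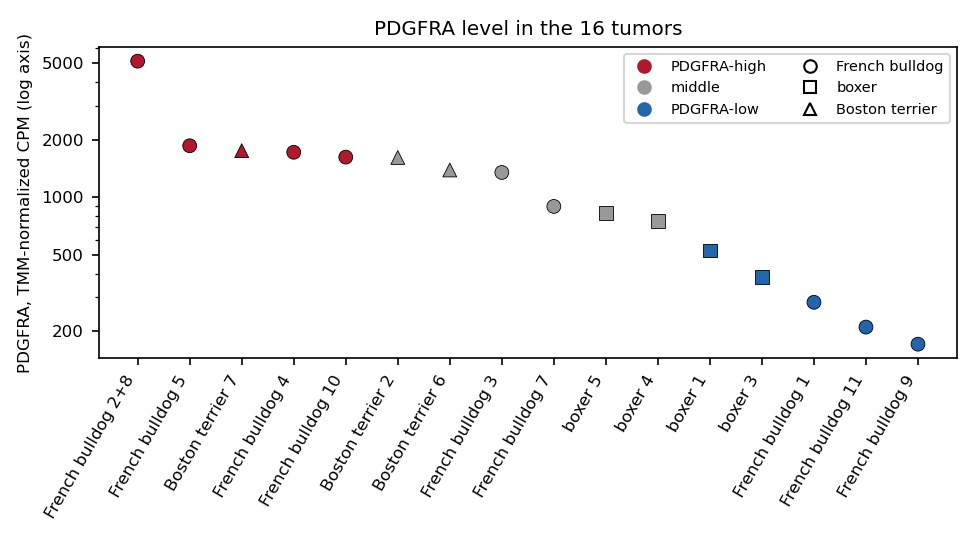
PDGFRA in TMM-normalized CPM (log axis) in the 16 ranked tumors, 1 point per tumor, coloured by group and shaped by breed. French bulldog 2 (summed with French bulldog 8) stands alone at 5126 CPM, the next 7 tumors lie between 1346 and 1855 CPM, and the level then declines to 171 CPM in French bulldog 9.

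The PDGFRA-high group held 4 French bulldogs and 1 Boston terrier, and the PDGFRA-low group 3 French bulldogs and 2 boxers. For the share of French bulldogs p was 1 (Fisher's exact test, two-sided, n = 5 and 5). No division of these dogs into 5 and 5 could have given a p under 0.05, so the test cannot show equal shares. Boxers and Boston terriers were not in the same groups, so French bulldog tumors were also compared alone. Total counts per tumor were 8212452 to 17924670 in the PDGFRA-high and 8985932 to 13169880 in the PDGFRA-low group. Total counts, TMM factor, the share of the top gene and the share of small non-coding RNAs each gave an adjusted p of 0.913 (exact permutation test over the group labels, two-sided, Benjamini-Hochberg over 4 measures). OLIG2 and SOX10, transcription factors of the oligodendrocyte lineage, were present in every tumor, with OLIG2 between 91.9 and 291 CPM and SOX10 between 160 and 464 CPM. The same counts that ranked the tumors also measured the other genes, so each test below asks only whether a gene goes with PDGFRA across these libraries.

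Of 16997 genes tested besides PDGFRA, 61 (0.359%) were differentially expressed genes (DEGs) at an adjusted p under 0.05 (edgeR quasi-likelihood test, Benjamini-Hochberg). They divided into 22 higher (0.129%) and 39 lower (0.229%) in PDGFRA-high tumors, and their adjusted p-values lay between 0.0379 and 0.0496. At an unadjusted p under 0.05 there were 1362 higher (8.01%) and 1618 lower genes (9.52%). The median log2 fold change of all genes was 0.01. In 55 of the 61 DEGs the groups did not overlap, against 260 (1.53%) of all genes on the higher side and 284 (1.67%) on the lower side. The DEGs were selected on this same difference, so their separation follows largely from the selection. The median of the middle tumors lay between those of the groups in 59 of the 61. The number of DEGs depended on single tumors: it was 0 without French bulldog 2, 4, 5 or 9, 2 without boxer 3, 11 without French bulldog 11, 23 without French bulldog 10, 101 without Boston terrier 7, 142 without boxer 1 and 443 without French bulldog 1. All 61 DEGs kept their direction in each of those 10 fits, which share most tumors with the fit that selected them. French bulldog tumors alone gave 7 DEGs. DESeq2's Wald test on all tumors, with its own size factors, gave 1011 of 27015 genes without the edgeR filter, or 991 of the 16997 filtered genes. DESeq2 applied its default filter on mean counts when adjusting p-values, and its adjustment included PDGFRA. With breed (French bulldog or not) as a covariate there were 84 DEGs, 54 of the 61 among them, and of the DEGs on the gene lists below FIP1L1 and MLC1 were called, while EGFR and DES each had an adjusted p of 0.0530 in that edgeR fit. A further covariate kept the French bulldogs as a series by breed and divided the other breeds by the sample numbers in their library names. Those numbers partly repeat the numbers of French bulldogs, so they alone do not separate the breeds. With this numbering series as a covariate there were 30 DEGs, 22 of the 61 among them. FIP1L1, MLC1, EGFR and DES were not (adjusted p = 0.052, 0.052, 0.072 and 0.081 in that edgeR fit). Genes are therefore given by their values and not by the call alone.

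The leading DEGs with a symbol that rose with PDGFRA had log2 fold changes of 0.85 to 1.75, while the largest among all 22 higher DEGs was 2.90. Of those with a symbol, CYRIB, which restrains the GTPase RAC1, had the smallest p. It stood at 125, 157, 186, 128 and 153 CPM in the PDGFRA-high tumors, listed here and below from the highest PDGFRA level to the lowest, and at 92.3, 66.6, 69.3, 72.9 and 58.9 CPM in the PDGFRA-low tumors (log2 fold change 1.06 ± 0.18 SE, adjusted p = 0.0379, edgeR quasi-likelihood test). Every PDGFRA-high tumor was above every PDGFRA-low tumor. BAMBI, a decoy receptor that dampens TGF-beta signaling, rose by 1.57 ± 0.28 on the log2 scale (adjusted p = 0.0379, edgeR quasi-likelihood test), from 4.37 to 8.17 CPM in the PDGFRA-low to 12.4 to 25.5 CPM in the PDGFRA-high tumors. FGF13, a fibroblast growth factor homolog that stays inside the cell, rose by 1.54 ± 0.30 (adjusted p = 0.0422, same test). Also higher were AZIN1, which stabilises ornithine decarboxylase (1.02), OCIAD1 (0.85), EBF4 (1.75), RCAN3, a calcineurin regulator (1.02), ATP6V1C1, a subunit of the vacuolar proton pump (1.05), and RBM28 (1.07), with adjusted p-values no higher than 0.0422.

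The DEGs that fell included larger changes. SLC13A3, a transporter of dicarboxylates and N-acetylaspartate, stood at 0.16, 0.23, 0.09, 0.46 and 0.20 CPM in the PDGFRA-high tumors and at 11.4, 0.36, 5.61, 6.06 and 8.81 CPM in the PDGFRA-low tumors. It fell by 4.75 ± 0.75 SE on the log2 scale (adjusted p = 0.0379, edgeR quasi-likelihood test). The values overlapped, because boxer 3 was as low as the PDGFRA-high group, where the gene rested on 1 to 5 counts per tumor, so the size of this fold change is uncertain. WFDC1, a secreted protease inhibitor, stood at 2.58, 3.75, 7.26, 5.08 and 3.01 CPM against 17.9, 32.3, 15.7, 57.9 and 33.6 CPM, with no overlap (log2 fold change -2.85 ± 0.45 SE, adjusted p = 0.0379, same test). NWD1 fell by 3.72 ± 0.65 (adjusted p = 0.0379, same test), and French bulldog 11 held most of it at 610.5 CPM against 45.0 to 101 CPM in the other PDGFRA-low tumors. Other leading genes with a symbol were FHL3 (-1.74), CHST1, a sulfotransferase (-1.46), TSC22D3, the glucocorticoid-induced leucine zipper (-1.61), MLC1 (-1.997), DENND1C (-2.18) and the scavenger receptor COLEC12 (-1.38), each with an adjusted p of 0.0379.

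Many of the DEGs that rose lie on the chromosome of PDGFRA. By symbol, 11319 of the 11796 tested genes that carry one could be placed on a chromosome of the RefSeq annotation of UU_Cfam_GSD_1.0, and PDGFRA lies on chromosome 13. Of the 13 higher DEGs with a symbol, 7 were on this chromosome: CYRIB, OCIAD1, AZIN1, FIP1L1, ATP6V1C1, ZNF16 and GRSF1. Chromosome 13 held 221 tested genes, of which 176 had a positive log2 fold change, and their median was 0.72. In the other chromosomes the median ran from -0.30 to 0.25. At an unadjusted p under 0.05, 53.8% of the chromosome 13 genes were higher, beside 8.01% of all genes, and 0.580% to 22.9% on any other chromosome. The groups did not overlap, on the higher side, in 36 of the 221 genes (16.3%), beside 1.53% of all genes. This chromosome was singled out after the values were seen, and neighbouring genes are not independent replicates.

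The higher values were spread along chromosome 13. Divided by gene order into 4 blocks of 55 or 56 genes, the median log2 fold changes were 0.67, 0.61, 0.79 and 0.87, with PDGFRA in the last block. Each block held at least 1 of the 7 DEGs. With each compared tumor left out in turn the chromosome median was 0.65 to 0.92 and the share of genes higher at an unadjusted p under 0.05 was 41.6% to 58.4%. Among French bulldog tumors alone the median was 0.98 and the share 58.4%, beside 5.28% of all genes higher and 9.22% lower in that fit. No gene copy number was measured.

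Single tumors differed in this. The chromosome 13 level of a tumor was taken as the median, over its genes, of log2 CPM relative to each gene's median over the 16 tumors, minus the same for all other chromosomes. In the PDGFRA-high tumors it was 0.64 in French bulldog 2, 0.49 in French bulldog 5, 0.01 in Boston terrier 7, 0.47 in French bulldog 4 and 0.05 in French bulldog 10. In the PDGFRA-low tumors it was 0.09 in boxer 1, -0.26 in boxer 3, -0.41 in French bulldog 1, -0.76 in French bulldog 11 and -0.54 in French bulldog 9. The groups overlapped by boxer 1 only, but Boston terrier 7 and French bulldog 10, with high PDGFRA, were near 0. Among the middle tumors the range was -0.65 in boxer 4 to 0.36 in Boston terrier 2.

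**Figure D2:**
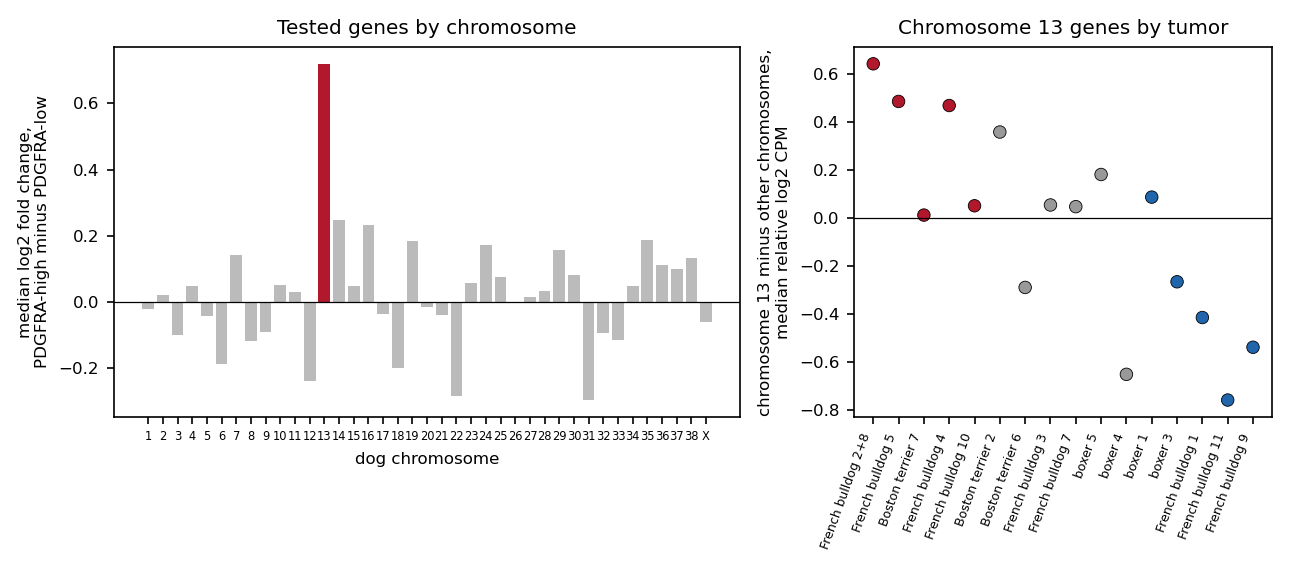
Left: median log2 fold change (PDGFRA-high minus PDGFRA-low) of the tested genes on each dog chromosome, with chromosome 13, which holds PDGFRA, in red. Right: chromosome 13 level of each tumor relative to the other chromosomes (log2), ordered from the highest to the lowest PDGFRA level. Chromosome 13 has a median of 0.72, and its level runs from 0.64 in French bulldog 2 to -0.76 in French bulldog 11.

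The genes nearest to PDGFRA were uneven. Among 13 tested neighbours on a fixed list 1 was a DEG, and the median log2 fold change was 0.98. At an unadjusted p under 0.05, 9 were higher and none was lower, beside 8.01% and 9.52% of all genes. Over the whole of chromosome 13, 53.8% of the tested genes were higher at that p. FIP1L1, a factor of messenger RNA polyadenylation 4 genes away, stood at 352, 266, 288, 232 and 192 CPM against 168, 103, 82.5, 96.8 and 86.1 CPM (log2 fold change 1.31 ± 0.25 SE, adjusted p = 0.0422, edgeR quasi-likelihood test). LNX1, a ubiquitin ligase that binds the Notch regulator NUMB, stood at 173, 96.0, 124, 318 and 91.5 CPM against 31.1, 33.9, 10.2, 73.8 and 22.9 CPM. In LNX1 too the groups did not overlap, with a log2 fold change of 2.24 ± 0.54 SE, but the adjusted p was 0.0631 (edgeR quasi-likelihood test). CLOCK, of the circadian clock, had a log2 fold change of 0.99 ± 0.28 SE (adjusted p = 0.0960, same test) and was highest in French bulldog 2 at 381 CPM.

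The receptor genes on the other side of PDGFRA showed other values. KIT, the adjacent receptor gene, had a log2 fold change of 0.33 (adjusted p = 0.737), and KDR, the next one, had -0.79 (adjusted p = 0.362, edgeR quasi-likelihood test). USP46 (0.11) and RASL11B (-0.03), 7 and 6 genes away on the side of FIP1L1, were near 0, while SCFD2 between them and FIP1L1 had 1.17. GSX2, a homeobox gene next to PDGFRA, failed the filter on low counts. It had 94 counts in French bulldog 2, or 5.16 CPM, and at most 1.49 CPM in any other tumor. KIT, KDR, USP46, RASL11B, SCFD2, GSX2, ZNF16, GRSF1, OLIG2 and SOX10 are named after their values were seen.

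The other PDGF genes mostly had negative log2 fold changes. Of 6 measured ligands and receptors 0 were DEGs by edgeR and 1, PDGFRB, by DESeq2 and by limma-voom, and 5 of 6 had a negative log2 fold change. PDGFC, an activating ligand of PDGFRA, was the exception at 34.0, 101, 49.0, 84.6 and 54.4 CPM against 36.2, 41.7, 43.2, 15.0 and 55.3 CPM, and the groups overlapped (log2 fold change 0.78 ± 0.35 SE, adjusted p = 0.262, edgeR quasi-likelihood test). PDGFA, the main ligand of the receptor in brain, gave -0.51 (adjusted p = 0.548), or -1.01 without French bulldog 10 and -0.34 without French bulldog 5 or Boston terrier 7, PDGFB -1.01 (adjusted p = 0.325), PDGFD -0.88 (adjusted p = 0.480) and the receptor-like PDGFRL -0.63 (adjusted p = 0.685, same test). PDGFD was -0.40 without French bulldog 11, and PDGFRL -0.10 without French bulldog 1, -0.34 without French bulldog 4, -0.38 without French bulldog 10 and -1.63 without Boston terrier 7. PDGFRB, the beta receptor found on pericytes, stood at 22.8, 30.7, 88.2, 43.8 and 36.3 CPM against 96.3, 135, 115, 129 and 87.6 CPM. Only Boston terrier 7 reached the PDGFRA-low range, and the difference missed the threshold (log2 fold change -1.34 ± 0.31 SE, adjusted p = 0.0608, same test).

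Genes of oligodendrocyte precursors mostly had positive log2 fold changes. Of 27 tested, 0 were DEGs by edgeR or limma-voom and 4 by DESeq2, 10 were higher and 0 lower at an unadjusted p under 0.05 (8.01% and 9.52% of all genes), and 23 had a positive log2 fold change, with a median of 0.43, or 0.65 and 0.66 without boxer 1 and boxer 3. NKX2-2, a transcription factor that specifies the lineage, stood at 138, 128, 62.3, 118 and 92.5 CPM against 48.4, 57.1, 68.1, 53.3 and 22.0 CPM. Boston terrier 7 alone overlapped the PDGFRA-low group (log2 fold change 1.13 ± 0.31 SE, adjusted p = 0.0875, edgeR quasi-likelihood test). PTPRZ1, a receptor phosphatase of precursors, stood at 6953, 3673, 5208, 4310 and 4862 CPM against 3784, 2542, 1571, 3401 and 1254 CPM (log2 fold change 0.99 ± 0.30 SE, adjusted p = 0.110, same test). CHST11, a chondroitin sulfotransferase, gave 0.87 ± 0.26 SE (adjusted p = 0.102, same test). The summed CPM of the list was 11583 to 15538 in the PDGFRA-high and 5217 to 13059 in the PDGFRA-low tumors, the lowest being French bulldog 9.

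Genes of later oligodendrocyte stages leaned the other way. Of 13 committed precursor genes, 0 were DEGs by edgeR or limma-voom and 1 by DESeq2, 5 were lower at an unadjusted p under 0.05 (9.52% of all genes), and the median log2 fold change was -0.35. The median was -0.55 in French bulldogs alone, -0.21 without French bulldog 1, -0.54 without Boston terrier 7 and -0.03 with 8 tumors per group. With Boston terrier 2 in place of the nearly tied French bulldog 10 it was -0.12, and 2 genes were lower, nearer to the share of all genes. Without French bulldog 1, 2, 4, 5, 9 or 10, 3 genes were lower. MYRF, the transcription factor that starts myelin gene expression, stood at 11.3, 32.8, 83.1, 41.3 and 49.6 CPM against 161, 68.1, 152, 82.2 and 231 CPM (log2 fold change -1.66 ± 0.47 SE, adjusted p = 0.0972, edgeR quasi-likelihood test). NKX6-2 (-3.07, adjusted p = 0.145) and RRAS2 (-1.12, adjusted p = 0.149, same test) followed. NKX6-2 was -0.77 without French bulldog 9, which had 17.3 CPM.

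The myelin genes rested largely on 1 tumor. Of 17 tested, 0 were DEGs by edgeR or limma-voom and 3 by DESeq2, 1 was higher and 7 lower at an unadjusted p under 0.05 (8.01% and 9.52% of all genes), with a median log2 fold change of -1.31. Without French bulldog 9 the median was -0.11 and 3 were lower, nearer to the share of all genes. MBP, myelin basic protein, stood at 94.2, 119, 309, 221 and 430.5 CPM against 381, 331, 1177, 886 and 4777 CPM (log2 fold change -2.63 ± 0.66 SE, adjusted p = 0.0690, edgeR quasi-likelihood test). MAG (-2.49) and HAPLN2 (-3.12) were likewise highest in French bulldog 9, at 106 and 47.5 CPM. Without that tumor MBP gave -1.54, MAG -1.46 and HAPLN2 -1.36. French bulldog 9 also had the highest summed CPM of neuron genes among all 16 tumors, 3545. None of 20 neuron genes differed at an unadjusted p under 0.05, and their median of -0.62 was 0.51 without this tumor, -1.24 without French bulldog 10, -0.34 without Boston terrier 7, -0.37 without French bulldog 2 and -0.39 without French bulldog 5. Fewer cells of a type and less RNA per cell cannot be told apart in bulk tissue, here or in the lists below.

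Astrocyte genes mostly had negative log2 fold changes. Of 19 tested, 1 was a DEG by edgeR, 6 by DESeq2 and 2 by limma-voom, all lower. At an unadjusted p under 0.05, 10 were lower and 0 higher, beside 9.52% and 8.01% of all genes, and 17 had a negative log2 fold change, with a median of -1.11. GFAP, the astrocyte intermediate filament, stood at 158, 654, 246, 375 and 687 CPM against 1028, 906, 2378, 2229 and 2708 CPM, with no overlap (log2 fold change -2.09 ± 0.46 SE, adjusted p = 0.0554, edgeR quasi-likelihood test). MLC1, a membrane protein of astrocyte end-feet, was the DEG, at 11.1, 23.6, 21.5, 36.5 and 44.2 CPM against 44.5, 135, 147, 93.8 and 139 CPM. Its groups did not overlap either, though French bulldog 10 and boxer 1 nearly met. NDRG2 gave -1.11 ± 0.25 SE (adjusted p = 0.0608, same test). The median stayed between -1.41 and -0.98 with each tumor left out, and was -1.34 among French bulldogs alone.

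Gene by gene, the neural progenitor list had no common direction. Of 14 tested, 0 were DEGs by edgeR or limma-voom, while DESeq2 gave 1 higher and 1 lower. At an unadjusted p under 0.05, 3 were higher and 2 lower (8.01% and 9.52% of all genes), with a median of -0.31 that became 0.27 without French bulldog 9, -0.17 without Boston terrier 7 and -0.48 in French bulldogs alone. DCX, a microtubule protein of migrating neuroblasts, stood at 777, 575, 187, 845 and 347 CPM against 220, 216, 353, 124 and 85.7 CPM (log2 fold change 1.47 ± 0.45 SE, adjusted p = 0.116, edgeR quasi-likelihood test). NES, the intermediate filament nestin, gave 0.80 (adjusted p = 0.145) and the homeobox gene DLX5 gave -2.18 (adjusted p = 0.133, same test). Both had overlapping groups. The summed CPM of the list did not overlap, at 869 to 1427 in the PDGFRA-high and 484 to 768 in the PDGFRA-low tumors. Of the mean sums of 1141 and 632 CPM, DCX gave 546 and 200 and NES 414 and 239.

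**Figure D3:**
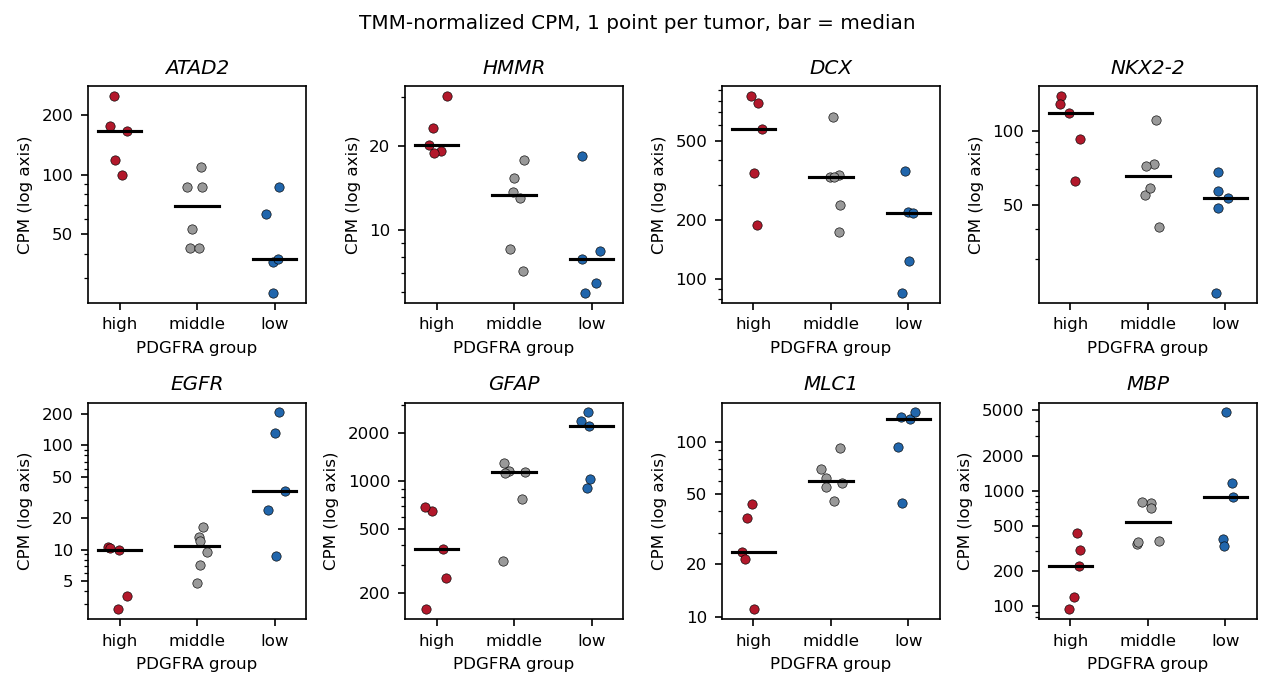
TMM-normalized CPM (log axes) of 8 genes in the PDGFRA-high, middle and PDGFRA-low tumors, 1 point per tumor, with bars at the group medians. ATAD2, HMMR, GFAP and MLC1 do not overlap between the high and low groups, while DCX, NKX2-2, EGFR and MBP do.

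Cell cycle genes mostly had positive log2 fold changes. None was a DEG by edgeR, while DESeq2 gave 12 S phase and 11 G2/M genes, all higher, and limma-voom 1 S phase gene. Of 38 S phase genes, 37 had a positive log2 fold change, 27 were higher and 0 lower at an unadjusted p under 0.05 beside 8.01% and 9.52% of all genes, and the median was 1.14. ATAD2, a chromatin ATPase induced by E2F factors, stood at 251, 119, 167, 177 and 99.8 CPM against 63.6, 36.1, 87.0, 25.3 and 37.7 CPM, with no overlap (log2 fold change 1.72 ± 0.37 SE, adjusted p = 0.0531, edgeR quasi-likelihood test). HELLS, a chromatin remodeler of dividing cells, gave 1.45 ± 0.34 SE (adjusted p = 0.0617), and UNG, the uracil glycosylase of DNA repair, 0.92 ± 0.26 SE (adjusted p = 0.0877, same test). Only 2 of the 38, ATAD2 and DSCC1, named here for their position, lie on chromosome 13, and the median without them was 1.08.

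The G2/M genes gave a like picture. Of 48 tested, 47 had a positive log2 fold change, 32 were higher and 1 was lower at an unadjusted p under 0.05, and the median was 1.07. None of them lies on chromosome 13. HMMR, a spindle protein, stood at 30.2, 19.2, 18.9, 20.1 and 23.2 CPM against 6.46, 7.90, 18.4, 5.96 and 8.40 CPM (log2 fold change 1.27 ± 0.31 SE, adjusted p = 0.0674, edgeR quasi-likelihood test). The single high value in the PDGFRA-low group was that of French bulldog 1. CDCA8, a subunit of the chromosomal passenger complex, gave 1.85 ± 0.48 SE (adjusted p = 0.0743), and TMPO, of the nuclear lamina, 1.17 ± 0.32 SE (adjusted p = 0.0859, same test), or 0.78 without French bulldog 2.

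French bulldog 1 stood apart within its group. The summed CPM of the S phase genes was 2034, 1057, 1500, 1419 and 939 in the PDGFRA-high tumors and 671, 570, 1246, 545 and 566 in the PDGFRA-low tumors. For the G2/M genes it was 4175, 1889, 2266, 2503 and 1826 against 1208, 1121, 2441, 1294 and 1700. French bulldog 1, with 283 CPM of PDGFRA, was thus within the PDGFRA-high range in both sums, and the other 4 PDGFRA-low tumors were below every PDGFRA-high tumor. Without it the medians were 1.41 and 1.71. French bulldog 2 had the largest sums, and without it the medians were 0.82 and 0.78.

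Among French bulldogs alone, whose PDGFRA-low group keeps French bulldog 1, the medians were 0.82 for S phase and 0.82 for G2/M genes, with 7 of 38 and 3 of 48 higher at an unadjusted p under 0.05, beside 5.28% of all genes in that fit. The G2/M count was thus near the share of all genes. A difference between breeds was not tested. The G1 list was mixed: of 17 tested, 4 were higher and 0 lower at an unadjusted p under 0.05 (8.01% and 9.52% of all genes), and the median was 0.30, or 0.12 without French bulldog 2, 0.19 without French bulldog 4 and 0.46 without boxer 1. These were led by RBL1, an inhibitor of E2F factors (1.02, adjusted p = 0.0959), CDK4, the cyclin D kinase (0.86, adjusted p = 0.123), and CCNE2, cyclin E2 (1.17, adjusted p = 0.130, edgeR quasi-likelihood test). MYC, on chromosome 13 and named after its value was seen, had a log2 fold change of 0.05 (adjusted p = 0.978, same test).

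**Figure D4:**
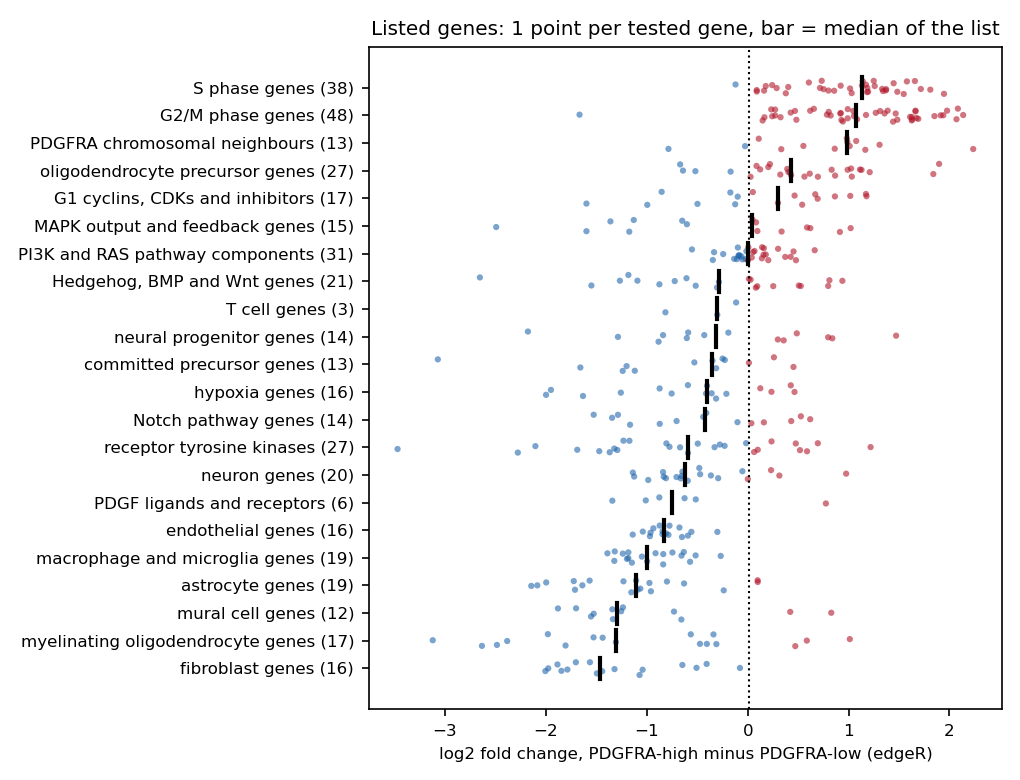
Log2 fold change (PDGFRA-high minus PDGFRA-low) of every tested gene on 22 lists, with the number of genes tested in parentheses, red above 0 and blue below it. Bars mark list medians and the dotted line the median of all genes, 0.01. S phase (1.14) and G2/M genes (1.07) lie furthest to the right, fibroblast genes (-1.47) furthest to the left.

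Most other receptor tyrosine kinases had negative log2 fold changes. Of 27 tested, 19 had a negative log2 fold change and 1 was a DEG by edgeR, 7 by DESeq2 and 0 by limma-voom, all lower. At an unadjusted p under 0.05, 11 were lower and 0 higher, beside 9.52% and 8.01% of all genes, and the median was -0.59, or -0.36 without boxer 1, -0.32 in French bulldogs alone and 0.11 with French bulldog 6 included. EGFR, the epidermal growth factor receptor, was the DEG and fell by 3.47 ± 0.72 SE on the log2 scale (adjusted p = 0.0496, edgeR quasi-likelihood test), but was not called with the numbering series as a covariate. It stood at 10.5, 3.63, 10.3, 2.68 and 9.92 CPM in the PDGFRA-high tumors and at 133, 36.9, 23.8, 208 and 8.73 CPM in the PDGFRA-low tumors. Boxer 1 and French bulldog 11 held most of it, while French bulldog 9, with the least PDGFRA, was as low as the PDGFRA-high group. In the middle tumors it was 4.82 to 16.4 CPM. CSF1R, the macrophage receptor (-1.32, adjusted p = 0.0655), and RET, the receptor of glial cell line-derived growth factors (-1.29, adjusted p = 0.0690, same test), came next.

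Genes that report or carry receptor signaling had no common direction. Of 15 MAP kinase output and feedback genes, 0 were DEGs by edgeR, DESeq2 or limma-voom, and 2 were higher and 2 lower at an unadjusted p under 0.05 (8.01% and 9.52% of all genes). Their median was 0.05 in all tumors, -0.33 in French bulldogs alone, and -0.13 (without French bulldog 1) to 0.17 (without French bulldog 11) with 1 tumor left out. DUSP6, a phosphatase induced by ERK, stood at 90.6, 121, 220, 158 and 99.5 CPM against 72.0, 106, 59.3, 96.2 and 32.0 CPM (log2 fold change 0.91 ± 0.36 SE, adjusted p = 0.204, edgeR quasi-likelihood test). PHLDA1 gave 1.02 (adjusted p = 0.191), or 0.46 without French bulldog 2, and IER3, an immediate early gene, -1.13 (adjusted p = 0.186, same test). Of 31 PI3K and RAS pathway components 0 were DEGs by edgeR, and DESeq2 and limma-voom each gave 1, higher. Higher at an unadjusted p under 0.05 were 2, no more than the 8.01% of all genes, and 0 were lower, and the median was 0.01. NF1, the RAS inhibitor neurofibromin, stood at 444, 335, 324, 346 and 378 CPM against 206, 209, 249, 231 and 273 CPM, with no overlap (log2 fold change 0.66 ± 0.15 SE, adjusted p = 0.0554, same test). PIK3CD, a catalytic subunit of PI3K, gave -0.55 (adjusted p = 0.290, same test).

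The lists of developmental pathways held 0 DEGs by edgeR or limma-voom, and 3 Notch and 3 Hedgehog, BMP or Wnt genes by DESeq2. Of 14 Notch genes, 1 was higher and 4 lower at an unadjusted p under 0.05 (8.01% and 9.52% of all genes, also for the next list), with a median of -0.43. NOTCH4 (-1.17, adjusted p = 0.0655), NOTCH3 (-1.53, adjusted p = 0.0995) and LFNG, which modifies Notch receptors (-1.34, adjusted p = 0.125, edgeR quasi-likelihood test), led them. NOTCH4 and NOTCH3 are also known as vessel genes. Of 21 Hedgehog, BMP and Wnt genes, 3 were higher and 4 lower at that p, with a median of -0.29, or -0.11 without French bulldog 5 and -0.19 without boxer 3. PTCH1, the Hedgehog receptor, stood at 238, 114, 104, 126 and 115 CPM against 85.8, 93.2, 52.4, 70.4 and 64.0 CPM, with no overlap (log2 fold change 0.94 ± 0.25 SE, adjusted p = 0.0793, same test). GLI3, a transcription factor of the same pathway, gave -2.65 ± 0.62 SE (adjusted p = 0.0608, same test), or -1.22 without French bulldog 11, which had 303 CPM. BMPR1B, a BMP receptor, gave -1.18 (adjusted p = 0.107, same test).

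Genes of vessels, stroma and macrophages mostly had negative log2 fold changes, and their part in the results above was not tested. Of the macrophage, endothelial and fibroblast genes edgeR called 0, DESeq2 4, 2 and 4, and limma-voom 0, 0 and 2, all lower. At an unadjusted p under 0.05, 9.52% of all genes were lower. All 19 macrophage and microglia genes had a negative log2 fold change, 10 at an unadjusted p under 0.05, with a median of -0.997 (-1.55 in French bulldogs alone) and a summed CPM of 107 to 282 against 198 to 670. LAPTM5 (-1.39, adjusted p = 0.0531) and CX3CR1 (-1.18, adjusted p = 0.0608, edgeR quasi-likelihood test) led the list. All 16 endothelial genes were negative, 11 at that p, with a median of -0.83 and a summed CPM of 316 to 701 against 550 to 1034, led by ABCB1 (-0.93) and FLT1 (-0.77). The 11 became 5 without French bulldog 2 or 5, 15 without French bulldog 9 or Boston terrier 7, and 0 with 8 tumors per group. Of 12 mural cell genes 10 were negative, 8 at that p, with a median of -1.29 and a summed CPM of 119 to 352 against 292 to 464. DES, desmin, was a DEG at 2.14, 2.69, 3.11, 2.12 and 1.80 CPM against 8.19, 8.62, 7.33, 5.66 and 9.13 CPM (log2 fold change -1.70 ± 0.35 SE, adjusted p = 0.0496, same test).

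All 16 fibroblast genes were negative, 10 at an unadjusted p under 0.05 (4 without French bulldog 11, 6 without French bulldog 4 or 5). Their median was -1.47 (-0.91 without French bulldog 11, -2.14 in French bulldogs alone), and the summed CPM of the list was 243 to 840 against 507 to 1558. LAMA2, a laminin chain (-1.89, adjusted p = 0.0528), and COL5A1, a fibrillar collagen (-1.44, adjusted p = 0.0608, edgeR quasi-likelihood test), led the list. Of 16 hypoxia genes, 0 were higher and 7 lower at that p, with a median of -0.41 (-0.20 without boxer 3, -0.75 without Boston terrier 7), led by PFKFB3 (-0.87, adjusted p = 0.0613) and PFKFB4 (-1.26, adjusted p = 0.0685, same test), both of glycolysis. Of the T cell genes only CD2, CD4 and CD5 passed the filter on low counts, and their median was -0.30, or -0.004 without French bulldog 4, -0.011 without French bulldog 5, -0.83 without French bulldog 10 and 0.05 with 8 tumors per group. The summed levels overlapped between the groups in every one of these lists.

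**Figure D5:**
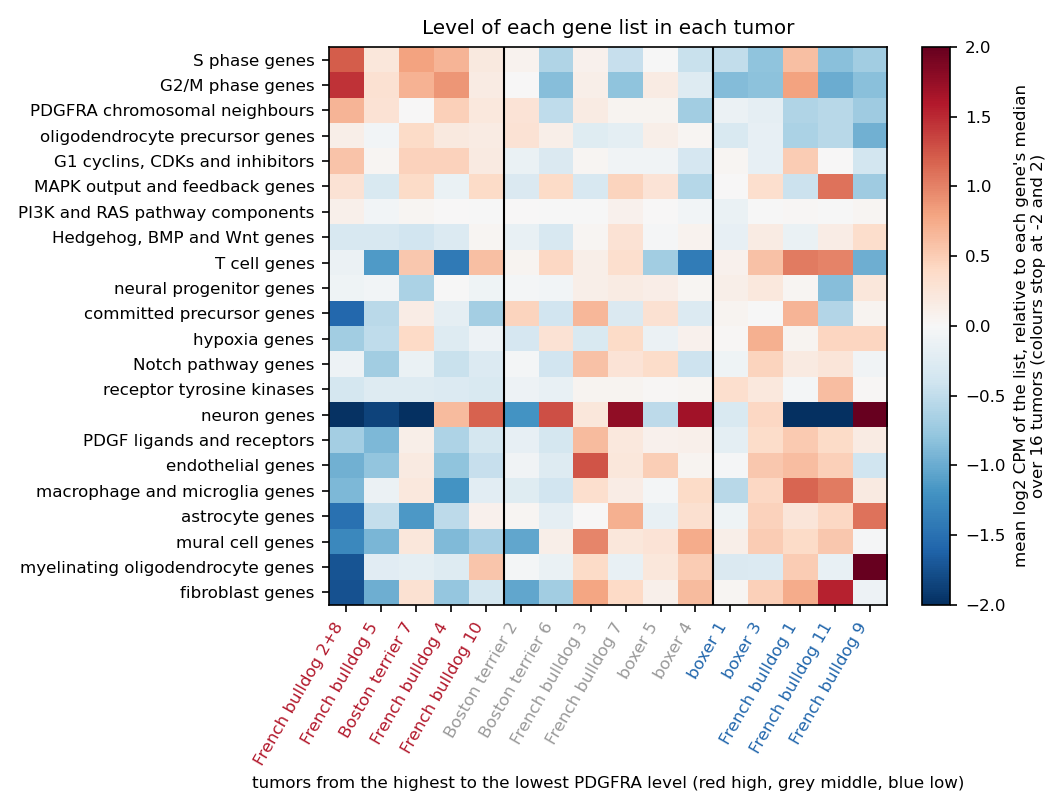
Mean log2 CPM of each list in each tumor, relative to each gene's median over the 16 tumors. Columns run from the highest to the lowest PDGFRA level, with lines between PDGFRA-high, middle and PDGFRA-low tumors, and colours stop at -2 and 2. French bulldog 2 is highest for S phase and G2/M genes, French bulldog 1 is the exception among the PDGFRA-low tumors, and French bulldog 9 is highest for myelin and neuron genes.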

How the data were processed

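The authors deposited raw counts per gene for 29993 Ensembl genes in 18 libraries, without normalization. The submitters' processing notes name Trimmomatic 0.33, FastQC, HISAT2 2.1.0, featureCounts and DESeq2, and the methods name the canFam6 assembly. The strand setting of the counting was not given in the sources used here, so overlapping genes may share counts. Ages and sexes were not used.

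Counts were analysed with edgeR 4.0.16 in R 4.3.3. Libraries of case 13-062 were summed, and library 15-021-1B (French bulldog 6) was left out. TMM factors, the filterByExpr filter by the 3 PDGFRA levels and robust quasi-likelihood dispersions were estimated over 16 tumors, whose middle 6 share the estimate of spread. The two-sided test of high minus low was adjusted by Benjamini-Hochberg over 16997 genes other than PDGFRA. Standard errors (SE) were derived from the fold change and its F statistic. Each tumor was 1 sample, apart from the summed case.

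The grouping, the gene lists and the rule for named genes were chosen with earlier results of these data known, so no list has a test of its own. Named were all PDGF ligands and receptors, the 3 tested genes with the smallest p of each lineage, cell cycle, signaling and neighbour list, 2 of each other list, and 10 genes with a symbol in each direction over the whole table; a few of these are not reported here. Symbols were placed on chromosomes by RefSeq (UU_Cfam_GSD_1.0), a different assembly, so no coordinates are given. A CPM of 1 was about 8 to 18 counts per tumor.

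The fit was tested on simulated counts for 5 high, 6 middle and 5 low tumors with 200 genes changed: it recovered 0% of the 2-fold, 71.1% of the 4-fold and 86.0% of the 8-fold changes among 16685, 16679 and 16748 genes, with 0, 3 and 4 false calls. The changed genes were random and independent, and fewer than the 2980 genes with an unadjusted p under 0.05 in the tumors. These rates therefore need not hold for the tumors, where OCIAD1 was called at a log2 fold change of 0.85. DESeq2 1.42.0, limma 3.58.1 and other settings served as alternatives.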

Additional observations from a re-analysis of the deposited data

Results flagged for a closer look

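In 77 named genes, PDGFRA not among them, 154 groups of 5 tumors were checked for 1 value far from the other 4, and 8 (5.19%) stood out; chance marks about 1 in 20. In each case the gap to the nearest tumor is given as a share of the group's whole range, both taken on the log2 CPM scale. French bulldog 2 was the high value within the PDGFRA-high group for TMPO (0.755, 384 CPM against 166 in the next tumor) and PTCH1 (0.767, 238 CPM against 126). French bulldog 1 was the high value within the PDGFRA-low group for TMPO (0.797, 154 CPM against 77.9) and RBL1 (0.765, 39.0 CPM against 20.9), and the low value for PFKFB3 (0.786, 116 CPM against 151). Boston terrier 7 was the high value within the PDGFRA-high group for NOTCH3 (0.813, 52.8 CPM against 19.2). French bulldog 11 was the high value within the PDGFRA-low group for GLI3 (0.894, 303 CPM against 35.0). Boxer 3 was the low value within the PDGFRA-low group for SLC13A3 (0.774, 0.36 CPM against 5.61).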

How the results depend on the processing

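The number of DEGs was the least stable result. The 61 became 1011 with DESeq2's Wald test, its size factors and its own filter in place of that of edgeR. On the genes that pass the edgeR filter, added after seeing the data, DESeq2 gave 991, and its size factors in edgeR gave 87. Limma-voom gave 96, the numbering series as a covariate 30, and French bulldog tumors alone 7. With 4 or 6 tumors per group there were 217 and 175, and with PDGFRA as a continuous covariate 751. Ranking without TMM gave 2 (Boston terrier 2 then replaced French bulldog 4) and library 13-062-1B alone 38. Without small non-coding RNAs there were 36 (Boston terrier 2 then replaced French bulldog 10, so that 2 choices changed). The number was 0 with 8 tumors per group and 0 with only the 10 compared tumors in the edgeR fit, where 2369 and 2308 genes still had an unadjusted p under 0.05. With each compared tumor left out in turn it was 0 to 443. The near tie at rank 5 was tried after seeing the data: with Boston terrier 2 in place of French bulldog 10 it was 4. All 61 DEGs kept their direction in every alternative that tested them (60 in the fit of 10 tumors), but these alternatives reuse tumors on which the DEGs were selected. The listed genes among the DEGs, 4, became 75 (DESeq2, 76 with the filter), 9 (limma-voom), 7 (DESeq2's size factors), 23 and 14 (4 or 6 tumors per group), 67 (continuous covariate), 2 (no filter on low counts, library 13-062-1B alone, or French bulldog 6 included) and 0 (10 tumors, numbering series, French bulldogs alone, 8 tumors per group, ranking without TMM, or rank 6 for rank 5), and 0 to 67 with 1 tumor left out.

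Of the list medians, French bulldogs alone gave -1.42 for PDGF ligands and receptors, -0.32 for receptor tyrosine kinases, -1.75 for mural cell and -0.78 for hypoxia genes. With 8 tumors per group they were 0.66 for the neighbours of PDGFRA, -0.40 for receptor tyrosine kinases, -0.34 for endothelial, -0.73 for mural cell, -0.83 for fibroblast, -0.64 for macrophage, -0.83 for myelin, -0.28 for Notch and 0.05 for T cell genes. Neuron genes gave -1.35 with 4 tumors per group and -1.31 with rank 6 for rank 5. Receptor tyrosine kinases gave -0.25 with 4 tumors per group, and precursor genes 0.79 with the numbering series as a covariate. French bulldog 6, when included, joined the PDGFRA-low group in place of boxer 1 while Boston terrier 2 replaced French bulldog 10. The medians were then 0.96 for precursor, 0.60 for S phase, 0.40 for G2/M, 0.11 for receptor tyrosine kinase, -0.065 for PI3K and RAS, 0.030 for Hedgehog, BMP and Wnt, -3.21 for macrophage and -2.04 for T cell genes. With 1 tumor left out the medians ran from -1.13 to -0.55 for PDGF genes, 0.69 to 1.13 for neighbours, -1.65 to -0.11 for myelin, -0.43 to 0.27 for progenitor, -0.62 to -0.36 for receptor tyrosine kinase and -0.033 to 0.072 for PI3K and RAS genes. The MAP kinase output median kept its sign in 17 of 30 alternatives (-0.33 to 0.25). CD4 turned to 0.99 with 8 tumors per group, 0.12 with the continuous covariate and 0.15 without boxer 3, with a range of -0.95 to 0.15 over the tumors left out. The cause of these shifts was not tested. List medians were not computed for the continuous covariate, whose unit differs.

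No paired analysis was possible because the compared groups were formed by PDGFRA level and the numbers in the labels mark no shared animal between them.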

Other observations

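Of the 61 genes that passed the threshold, 14 carry no symbol in the deposited table, 9 of them higher and 5 lower in PDGFRA-high tumors. After chromosome 13, the chromosomes with the next largest shares of genes higher at an unadjusted p under 0.05 were 24 (22.9%, median log2 fold change 0.17) and 14 (22.3%, median 0.25). They were read off after seeing the values and were not tested.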
